A study of Mus musculus with 2 samples.

Results

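The miR-26 family was examined in small RNA libraries of E9.5 hearts from WT C57BL/6 mice, as all precursors listed under the name miR-26a or miR-26b. The rule found 3 precursors of 620 listed in either replicate, and each of the 3 was listed in both replicates. They lie in the genes Ctdsp2, Ctdspl and Ctdsp1, and are called by these host genes below. There is 1 group with 2 samples and no treatment, so no conditions were compared, and the sources used here do not say how many embryos each sample holds. Any p-value between the replicates sets their difference against counting error only, and such a difference may be technical. The files hold raw counts of reads on each precursor, split into mature reads (on the arm taken as the miRNA), star reads (on the opposite arm) and loop reads. Replicate 1 held 4942257 mature reads and replicate 2 held 4806179, of which 3619523 and 3499739 remained when each mature sequence was counted once, by its highest precursor. Shares below are percentages of the latter totals. Depth limits a share to a floor of 3 reads, or 8.29e-05% in replicate 1 and 8.57e-05% in replicate 2, and Wilson intervals and floors cover counting error only. The miRNA of heart muscle, miR-1a-3p, stood at rank 1 of all mature sequences, with 14.0% ± 0.55 of the mature reads (SD, n = 2).

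MiR-26 is a vertebrate miRNA family whose genes sit inside introns of the genes for small C-terminal domain phosphatases, enzymes that remove phosphate from the tail of RNA polymerase II and from other proteins. An intronic miRNA is cut out of the host transcript as a hairpin by DGCR8 and Drosha, and Dicer then frees both arms, of which one is usually kept as the guide. The guide finds its targets mainly through its seed, nucleotides 2 to 8 from the 5′ end. MiR-26 is known as a brake on cell growth, through targets such as the methyltransferase gene Ezh2 and cell cycle genes.

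The sequences show which reads can be told apart. Both miR-26a precursors give one and the same 5p arm, and miR-26b has the same seed, which is in capitals here as the deposited tables give it:
miR-26a-5p (Ctdsp2): uUCAAGUAauccaggauaggc
miR-26a-5p (Ctdspl): uUCAAGUAauccaggauaggc
miR-26b-5p (Ctdsp1): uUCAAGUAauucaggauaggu

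In both tables the 5p sequence was 21 nt long for each precursor. RefSeq (build GRCm38.p6) lists miR-26a-5p with 22 nt, ending in a further U, and miR-26b-5p with 21 nt. Counted from the 5′ end of miR-26a-5p, miR-26b-5p differed by C11U and C21U and was the same at the other 19 of 21 bases. No further precursor in the tables shared the seed: 3 of 620 entries carried it, and 0 star sequences did. Among 1679 mature names of RefSeq, 2 had this seed, miR-26a-5p and miR-26b-5p. The opposite arms differ at all 3 loci, which makes their reads specific to a locus. The RefSeq 3p arms are printed with the bases that vary among the 3 in capitals:
3p Ctdsp2: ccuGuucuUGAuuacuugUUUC
3p Ctdspl: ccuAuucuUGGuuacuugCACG
3p Ctdsp1: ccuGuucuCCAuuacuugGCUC

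The 3p arms of Ctdsp2 and Ctdspl were identical at 16 of 22 bases, those of Ctdsp2 and Ctdsp1 at 18, and those of Ctdspl and Ctdsp1 at 14. Counted from the 5′ end of the Ctdsp2 arm, the Ctdspl arm differed by G4A, A11G, U19C, U20A, U21C and C22G. The Ctdsp1 arm differed from it by U9C, G10C, U19G and U20C. The loop between the arms was 17 nt long in the Ctdsp2 precursor, 18 nt in Ctdspl and 15 nt in Ctdsp1.

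All 3 precursors lay on the same strand as their host, in a corresponding intron. The Ctdsp2 precursor covers chr10:126432599-126432656 (mm9, plus strand), in intron 5 of a host that spans 126415773 to 126437031. The Ctdspl precursor covers chr9:118940929-118940989 (mm9, plus strand), also in intron 5, of a host that spans 118835571 to 118953116. The Ctdsp1 precursor covers chr1:74440898-74440953 (mm9, plus strand), in intron 4 of a host that spans 74438083 to 74443859. In each host this intron follows an exon of 57 nt, precedes an exon of 93 nt and is followed by 2 further introns. Its length was not alike, with 1946 bases in Ctdsp2, 3283 in Ctdspl and 564 in Ctdsp1. The Ctdsp2 precursor stood close to the end of its intron, 254 bases before the next exon, and those of Ctdspl and Ctdsp1 near the middle, 1664 and 260 bases before it. A shorter annotated Ctdsp2 transcript begins at 126432669, 12 bases after the precursor, and at the last base of the annotated hairpin Mir26a-2 (126432586 to 126432669).

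**Figure D1:**
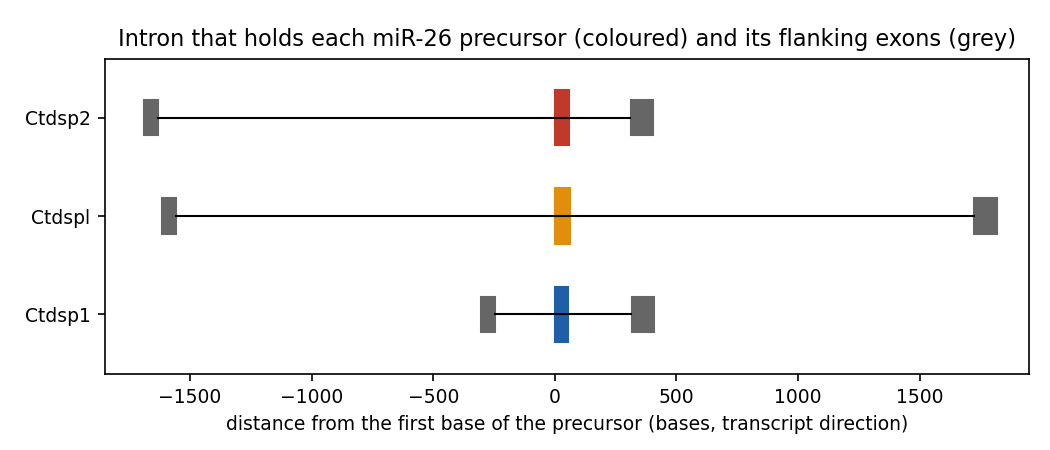
The intron that holds each miR-26 precursor, drawn to scale in bases from the first base of the precursor. The coloured box is the precursor, the grey boxes are the flanking exons of 57 and 93 nt, and the line is the intron, of 1946, 3283 and 564 bases from top to bottom.

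By mature reads, miR-26a-5p was among the most abundant miRNAs of the E9.5 heart, and miR-26b-5p was several times lower. The mature reads of the Ctdsp2 entry numbered 78821 in the first replicate and 87796 in the other. Those of the Ctdspl entry numbered 78819 and 87794, so both miR-26a entries differed by 2 reads in each library, and their 5p reads could not be assigned to a locus. Counted once, miR-26a-5p held 2.18% of the mature reads in replicate 1 (95% Wilson interval 2.16% to 2.19%) and 2.51% in replicate 2 (2.49% to 2.53%), or 2.34% ± 0.23 (SD, n = 2). MiR-26b-5p, from Ctdsp1, held 12128 and 12324 mature reads, a share of 0.335% (0.329% to 0.341%) and 0.352% (0.346% to 0.358%), or 0.344% ± 0.012 (SD, n = 2). The levels of the paralogues did not overlap. MiR-26a-5p had 6.50 times the mature reads of miR-26b-5p in replicate 1 and 7.12 times in replicate 2, a ratio of 6.81 ± 0.44 (SD, n = 2). Such ratios compare reads of different sequences, and whether the libraries captured these sequences equally was not tested. These are libraries of whole hearts, in which fewer cells of a type and less RNA per cell cannot be told apart.

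Ranked by mean share among 386 mature sequences found in both libraries, miR-26a-5p stood at rank 10 and miR-26b-5p at rank 44. In the single libraries the ranks of miR-26a-5p were 11 and 10, and those of miR-26b-5p 43 and 44. Directly above miR-26a-5p stood miR-92a-3p with 2.99% ± 0.30 and miR-378a-3p with 2.85% ± 0.018 (SD, n = 2 for each). The sequence of miR-92a-3p is listed at 2 loci, so its share is not that of the growth-promoting miR-17~92 cluster alone. The values of miR-92a-3p and miR-378a-3p in the replicates did not overlap with those of miR-26a-5p. Below it stood miR-381-3p with 2.30% ± 0.16 and miR-434-5p with 1.97% ± 0.28 (SD, n = 2 for each), both of the imprinted cluster on chromosome 12. The values of miR-381-3p overlapped with those of miR-26a-5p, with 2.41% against 2.18% in replicate 1 and 2.19% against 2.51% in replicate 2, so the order of this pair changed between the libraries. Around miR-26b-5p stood miR-93-5p with 0.389% ± 0.0034 and miR-296-3p with 0.384% ± 0.089 above it, and miR-24-3p with 0.328% ± 0.0049 and miR-758-3p with 0.279% ± 0.019 below (SD, n = 2 for each). Among these, the values of miR-296-3p (0.321% and 0.447%) overlapped with those of miR-26b-5p.

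**Figure D2:**
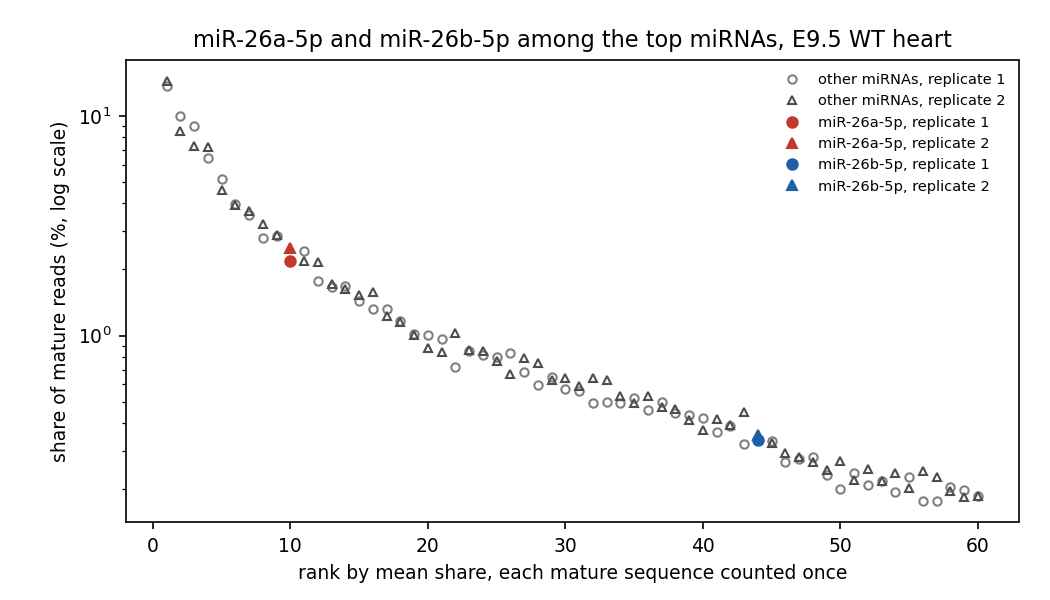
Share of mature reads in percent, on a log scale, against rank by mean share for the top miRNAs, with each mature sequence counted once. Circles are replicate 1 and triangles replicate 2, and miR-26a-5p (red, 2.18% and 2.51%) lies well above miR-26b-5p (blue, 0.335% and 0.352%).

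Since both paralogues have one seed, they may be read as 1 pool of guides. The summed share of the miR-26 family was 2.51% in replicate 1 and 2.86% in replicate 2, or 2.69% ± 0.25 (SD, n = 2). Among 328 groups of miRNAs with a common seed, this placed it at rank 11. Above it stood the miR-30 family with 3.49% ± 0.09 and miR-378a-3p with 2.85% ± 0.018, and below it miR-381-3p with 2.30% ± 0.16 (SD, n = 2 for each). MiR-378a-3p, with 2.834% and 2.859%, was above the family in replicate 1 and just below its 2.861% in replicate 2, so the order of this pair changed between the libraries. The group of miR-1a and miR-206, at rank 1, held 14.0% ± 0.55 (SD, n = 2).

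The family was set beside 2 others that also sit in introns of paralogous genes, miR-103 with miR-107 in the pantothenate kinase (Pank) genes and miR-218 in the Slit genes of axon guidance factors. MiR-103 and miR-107 together held 0.516% ± 0.015 of the mature reads and miR-218 held 1.01% ± 0.0044 (SD, n = 2 for each). MiR-26 had 5.21 ± 0.63 times the mature reads of miR-103 and miR-107 together and 2.65 ± 0.25 times those of miR-218 (SD, n = 2). It was higher than either in both libraries. As the families were measured in the same libraries, the comparison is paired, and an exact permutation test over 2 pairs cannot give a two-sided p below 0.5, so these differences were not tested over samples.

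The replicates are the only contrast in the series. Each entry was tested by a two-sided exact binomial test of its reads in replicate 2 among both, scaled by the total mature reads, with Benjamini-Hochberg adjustment over the 431 entries with at least 20 mature reads in sum. All 3 miR-26 entries passed at an adjusted p of 0.05, each upward from replicate 1 to replicate 2, where 41.1% of all entries tested passed in either direction and 27.6% passed upward. Both miR-26a entries list nearly the same reads, so they are not separate results. Expressed as log2 of the second replicate over the first, the difference was 0.196 for both miR-26a entries (adjusted p = 3.38e-167, exact binomial test) and 0.063 for miR-26b-5p (adjusted p = 0.00195, same exact test). These tests see sampling noise alone. The biological coefficient of variation from edgeR's common dispersion was 15.2%, at which a log2 ratio has an SD of 0.311, so both differences were smaller than this SD. It is common to all 431 entries, of which low ones spread more widely, so it may be too wide for entries as high as these. In absolute size, 52.4% of the entries tested had a smaller log2 ratio than miR-26a-5p (Ctdsp2) and 20.9% a smaller one than miR-26b-5p.

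The direction of miR-26b-5p rested on the scaling. The median log2 ratio over all entries tested was 0.072 with total reads. With edgeR's TMM factors miR-26b-5p had a log2 ratio of 0.0019 (adjusted p = 0.970), and with DESeq2's size factors one of -0.0089 (adjusted p = 0.762, exact binomial test for both). MiR-26a-5p (Ctdsp2) stayed higher in replicate 2 under these scalings, at 0.134 and 0.124. Over all entries, 119 of 177 calls (67.2%) were higher in replicate 2 with total reads, against 46.4% of 179 with TMM factors and 43.6% of 179 with size factors. The ratio of miR-26a-5p to miR-26b-5p within a library does not depend on scaling. It was 1.096 times higher in replicate 2 (95% interval 1.067 to 1.126, p = 2.10e-11, two-sided Fisher's exact test on the reads, which sees counting error alone), a log2 difference of 0.13.

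**Figure D3:**
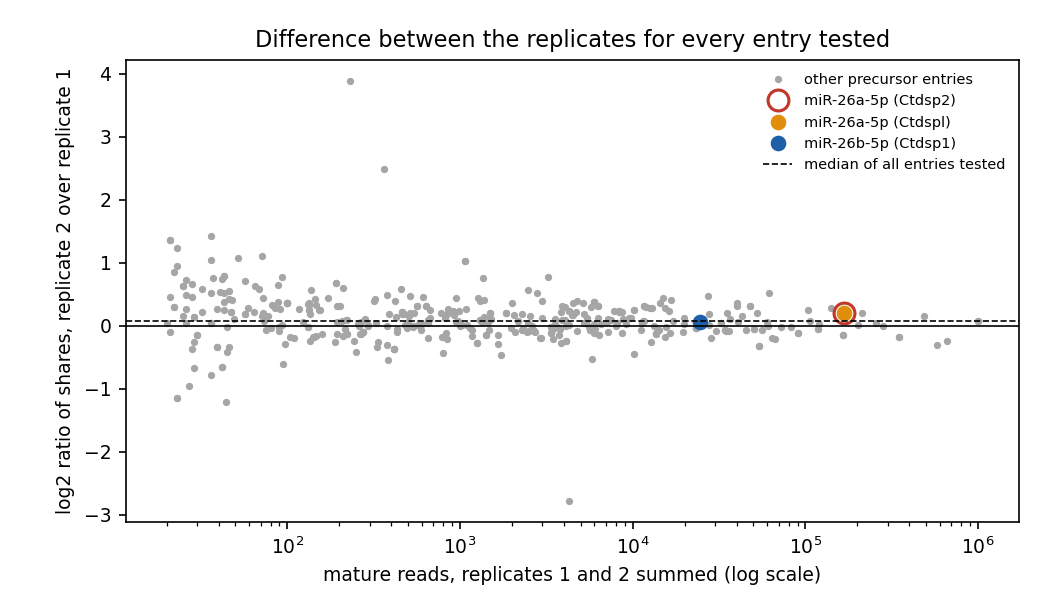
Log2 ratio of shares of mature reads, replicate 2 over replicate 1, for each of the 431 entries tested, against the mature reads of both replicates on a log scale. Both miR-26a entries (red ring and orange point, 0.196) fall on the same spot, miR-26b-5p (blue, 0.063) lies near the dashed median of 0.072, and low entries spread more widely.

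The opposite arm, 3p, was rare in all 3 entries, and the loop was not seen. No entry of the family had a loop read, which allows a share of the reads of an entry of up to 0.0034% to 0.0246%. This was common, since 48 of the 62 entries above 10000 mature reads in each library had 0 loop reads in each. As listed, the 3p (star) reads of Ctdsp2 were 167 in replicate 1 and 2 in replicate 2, those of Ctdspl were 12 and 11, and those of Ctdsp1 were 46 and 31. The value of 2 for Ctdsp2 in replicate 2 goes with a table row that does not add up. Its total is 87955 reads, 157 more than its mature, loop and star reads together, and it was the only one of 1091 rows in both tables with such a gap. The total less mature and loop reads gave 159 for this row, against 167 in replicate 1, where the row adds up. To which part of the precursor the 157 reads belong is not stated, and results that rest on them are given both ways.

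Of the 3p reads of miR-26a, most came from Ctdsp2 in replicate 1, with 167 of 179 or 93.3% (95% Wilson interval 88.6% to 96.1%, p = 4.35e-36, two-sided exact binomial test against an equal split). In replicate 2 the listed star reads gave 2 of 13, or 15.4% (4.33% to 42.2%, exact p = 0.0225), in the opposite direction. Summed over the replicates as listed, the share of Ctdsp2 was 88.0% (169 of 192 reads, exact p = 1.18e-28). Of these 192 reads, 179 came from replicate 1, and the libraries went in opposite directions. The p-value of the sum thus covers counting error alone, and not the spread between the libraries. With the total less mature and loop reads, a count chosen after seeing the data, replicate 2 had 159 of 170, or 93.5% (88.8% to 96.3%, exact p = 8.85e-35), and the mean was 93.4% ± 0.16 (SD, n = 2). The split thus differed between the libraries with the star reads as listed (p = 3.80e-10, two-sided Fisher's exact test), and not detectably with the other count (same exact test, p = 1). Reads of the 5p arm, which are the same at both loci, hold no information on this split. It is a split of 3p reads alone, from arms that differ in sequence. Whether it equals the split of miR-26a output between the loci was not tested.

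**Figure D4:**
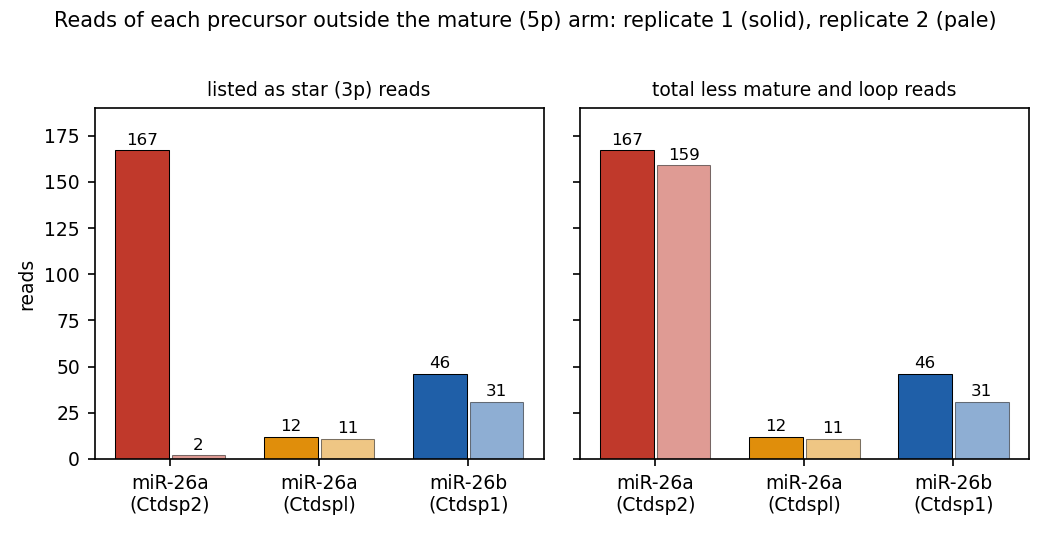
Reads of each precursor outside the mature arm in replicate 1 (solid bars) and replicate 2 (pale bars), on the left as listed under star and on the right as the total less mature and loop reads. The bars differ between the panels for miR-26a of Ctdsp2 in replicate 2, with 2 reads as listed and 159 by difference, and Ctdspl stays at 12 and 11.

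As a share of the reads on both arms, the 3p arm of miR-26b (Ctdsp1) was 0.378% in replicate 1 (95% Wilson interval 0.283% to 0.504%) and 0.251% in replicate 2 (0.177% to 0.356%). These values did not differ beyond counting error (two-sided Fisher's exact test, p = 0.0866, adjusted p = 0.104 over 6 tests). By entry, Ctdspl had a 3p share of 0.0152% and 0.0125% (adjusted p = 0.680 between replicates, same exact test). That of Ctdsp2 was 0.211% in replicate 1, against 0.00228% as listed in replicate 2 (adjusted p = 1.35e-50, same exact test) or 0.181% by difference (adjusted p = 0.235, same exact test). Both miR-26a entries carry the shared 5p reads in full, so these values and tests do not give the arm use of either locus. For miR-26a, with 5p reads counted once and 3p reads of both loci added, the share was 0.227% in replicate 1, and in replicate 2 it was 0.0148% as listed or 0.193% by difference. In replicate 1, where all rows add up, the 3p share of miR-26b was 1.67 times that of miR-26a (adjusted p = 0.00459 over the tests on listed reads and 0.0184 over those on reads by difference, Fisher's exact test). In replicate 2 it was 1.30 times as high by difference (adjusted p = 0.235, same exact test), against 16.9 times as listed (adjusted p = 1.29e-18, same exact test). For the whole family the listed 3p share was 0.247% in replicate 1 and 0.0439% in replicate 2, or 0.145% ± 0.143 (SD, n = 2), so either library alone moves it by more than 1.5 times. By difference it was 0.224% ± 0.033 (SD, n = 2), and as listed with the 5p reads of each miR-26a entry added it was 0.0779%.

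All 3 precursor entries had a star share below the median of all entries compared. Over 310 entries with at least 100 reads on both arms in each replicate, the median share of the star arm was 1.13%, with quartiles of 0.024% and 8.73%. Mean star shares were lower than that of Ctdsp1 in 40.3% of these entries, than that of Ctdsp2 in 31.9% as listed and 35.5% by difference, and than that of Ctdspl in 24.5%. Set beside the families in Pank and Slit genes, the passenger arm of miR-26b was more frequent. MiR-26b is the member with the highest 3p share in these same reads, so the p-values against it are no independent support. For miR-26a with both loci added, the share in replicate 1 (0.227%) and by difference in replicate 2 (0.193%) lay above those of both families. As listed in replicate 2 (0.0148%) it lay below them. These differences were not tested. For miR-103 and miR-107, passenger reads held 0.0262% of the reads on both arms in replicate 1 and 0.0282% in replicate 2 (adjusted p = 5.96e-14 and 3.67e-08 against miR-26b, two-sided Fisher's exact tests, adjusted over 4). MiR-107 alone had 0 passenger reads beside 1064 and 1095 guide reads, which allows up to 0.282% and 0.274% (p = 0.0497 and 0.175 against miR-26b, same exact test, not adjusted). The call for this pair thus rests on miR-103. For miR-218, passenger reads held 0.0272% and 0.0424% (adjusted p = 1.26e-18 and 5.63e-09, same exact tests).

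Seed matches were sought in the 3′ UTRs of the host genes, of a list of genes commonly named as miR-26 targets, and of Ctgf. They are a description of the sequences alone, since no transcript levels are part of these data. A match is TACTTGA, which pairs with nucleotides 2 to 8 of both miR-26a-5p and miR-26b-5p, and it counts as an 8mer if an A follows. In the longest annotated 3′ UTR of each gene, 8.59% of 19915 protein-coding genes held 1 or more. Of the hosts, Ctdsp2 held 1 match in 3489 nt, and Ctdspl (3349 nt) and Ctdsp1 (1701 nt) held 0. Among genes with a 3′ UTR of similar length to that of Ctdsp2, 22.1% held a match. The Ctdsp2 site is shown because it lies in the host of the miRNA itself, at chr10:126434608-126434629 (mm9, plus strand), with the match in capitals:
Ctdsp2 3′ UTR: ccaagtgttgctctTACTTGAt

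The listed targets had longer 3′ UTRs than most genes, with a median of 2060 nt against 893 nt, and many were named as targets because of such matches, so their count is no independent evidence. Of 16 genes, Ctgf included, 9 held a match and 7 did not. Gsk3b, a kinase of Wnt and insulin signalling, held 3 matches in 5515 nt, and Tet2, an enzyme of DNA demethylation, held 2 in 3058 nt. Single matches lay in Rb1, Hmga2, Ccne1, Ccne2, Ccnd2, Kcnj2 and Tdg. They include the tumour suppressor Rb1, the cyclin genes of the G1 phase, and Kcnj2, which encodes a potassium channel of heart muscle. The single matches in Rb1, Ccnd2 and Kcnj2 were 8mers, as was 1 match each in Gsk3b and Tet2. Ezh2, Smad1, Gata4, Lin28b, Cdk6, Il6 and Ctgf held 0 matches of this kind in the 3′ UTRs searched, which says only that these letters are absent there.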

How the data were processed

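Total RNA of 2 samples of E9.5 WT heart was sequenced from one end for 50 nt on a HiSeq 2500. Reads that passed cleaning were placed on mm9 by the authors and counted with miRDeep2 (version not given in the sources used here). The deposited values are raw read counts per known precursor, for each replicate on its own and without normalization. The authors' miRDeep2 score of each precursor was not used. Coordinates were brought to a count from 1, after which all 568 and 523 precursor sequences equalled NCBIM37, the assembly that mm9 names. Genes are those of GENCODE vM1. Entries of the replicates were paired at an overlap of at least 50% on one strand, which gave 620 entries, 471 of them in both. The main counting takes each mature sequence once, since identical reads cannot be assigned to a locus. The exact binomial test was tested on simulated counts with 200 of 431 entries changed by a log2 ratio of 0.5. Of the changed entries 74% were recovered, and 1.33% of all calls fell on unchanged entries. The simulated counts had sampling noise only. Common dispersion and TMM factors came from edgeR 4.0.16 and size factors from DESeq2 1.42.0 (R 4.3.3), other values from Python 3.11.15 with scipy 1.17.1.

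The members and lists were chosen with earlier results of these data known. Named are the miR-26 entries, their hosts, entries with the same seed, miR-103, miR-107, miR-218, and the 2 sequences above and below each paralogue in level. Also named are Ctgf and a list of targets written from general knowledge without a literature search. One gene of that list is not reported here. The groups of miRNAs by seed, the tests of arm use between paralogues and families, the test of the miR-26a to miR-26b ratio, and miR-1a-3p were added after seeing the data. 3′ UTRs of similar length are those within 0.8 to 1.2 times the length. Alternatives counted every entry, used all reads of a precursor, required 10 mature reads of an entry in each library, varied scaling and read minimums, and left out each replicate.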

Additional observations from a re-analysis of the deposited data

Results flagged for a closer look

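In replicate 2, the total of the miR-26a entry in Ctdsp2 holds 157 reads that appear in none of its mature, loop and star parts, more than the 3 reads set as the floor for detection. There are no control samples for this signal. The same entry had 0 such reads in replicate 1, and so had the Ctdspl and Ctdsp1 entries in both replicates.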

How the results depend on the processing

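With every precursor entry counted as its own item, the share of the family moved to 3.67%, of miR-26a-5p to 3.42% and of miR-26b-5p to 0.251%, and with the miR-26a entries added, the ratio of miR-26a-5p to miR-26b-5p moved to 13.6. That counting takes reads of a shared mature sequence at each of its loci, in the totals too. The share of Ctdsp2 in the 3p reads of miR-26a ran from 15.4% without replicate 1 to 93.3% without replicate 2, which reverses the call against the summed 88.0%, and was 93.4% with the total less mature and loop reads, an alternative added after seeing the data. The log2 ratio between replicates of miR-26b-5p lost its call with TMM factors (0.0019) and turned to -0.0089 with size factors, which the scaling itself accounts for. The 3p share of the family ran from 0.0439% without replicate 1 to 0.247% without replicate 2, against 0.145%, and was 0.0779% with the 5p reads of each miR-26a entry added and 0.224% by difference. Its SD of 0.143 is too wide to call it stable. With 2 replicates, leaving out 1 always moves a mean by less than 1 SD, so this says nothing on the stability of the shares and the ratio. Those moved by less than 1 SD with all reads of a precursor, as did the shares with the minimum of 10 reads. Of 13 alternatives to values with a test, 10 kept their direction and call. This tally takes both miR-26a entries, which list nearly the same reads and are not separate results. It also includes the count by difference, which was added after seeing the data. The number of entries that differ between the replicates ran from 137, with each mature sequence tested once, to 184 with all reads of the precursor. Loop reads in place of star reads gave no value, as there were 0. No paired analysis was possible because the series has 1 group. Depth limits mostly the 3p arm, with 2 to 167 listed reads an entry.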

Other observations

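Copies of a miRNA with the same mature sequence at separate loci did not always have equal counts in these tables. Of 19 such sequences with at least 1000 mature reads in replicate 1, 14 had counts within 1% of each other at their loci, and 15 of 20 did in replicate 2. The miR-26a copies differed by 0.0025% and 0.0023%. Those of miR-218 differed by 29.5% in replicate 1, with 36815 reads against 25965, and those of miR-92a by 20.8%, with 100633 against 79713.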
